A study of Mus musculus with 6 samples.

Results

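Collagen, proteoglycan and meningeal fibroblast genes were examined in the hippocampus of wild-type (WT) and Phf8 knockout (KO) mice. The set holds 38 named genes of the extracellular matrix and of the fibroblasts that cover the brain. They were chosen with earlier results of these data known. Counts set beside the share of all genes therefore describe this set and are not a test of it. A probe set was taken for a gene where the array's gene table gives that gene alone. Of the 38 genes, 37 had at least 1 such probe set, and 36 had a probe set bright enough to be tested, out of 12903 genes tested in all. Fbn1, the gene for fibrillin, was not analysed here because no probe set carried it as the only symbol, and both probe sets of Col1a1 lay below the brightness filter. The members fall into 6 groups, which are fibrillar collagens, other interstitial collagens, basement membrane genes, small proteoglycans, matrix glycoproteins and fibroblast markers.

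The 3 WT and 3 KO samples were hippocampus at 10 weeks of age on a C57BL/6 background, and total RNA of each went on 1 Affymetrix mouse array. In the KO mice, exons 7 and 8 of the X-linked gene Phf8, which encode the demethylase (JmjC) domain, were deleted in the germline with EIIa-Cre from a floxed allele made on another inbred background. The line was then backcrossed to C57BL/6J for 5 or more generations, and the paper describes the animals as male Phf8 -/Y mice and their WT littermates. The deletion is therefore carried by every cell type of the mouse, fibroblasts included. The sources used here leave it unclear whether 1 array holds 1 animal or several, so p-values measure only the spread between these samples.

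Collagens are the fibres and sheets of the extracellular matrix. Fibrillar collagens give connective tissue its strength, collagen VI forms beaded filaments, and collagen IV builds the basement membrane that surrounds every blood vessel of the brain. Small leucine-rich proteoglycans such as decorin and fibromodulin bind collagen fibrils and set their width. In the brain, fibrillar collagens and these proteoglycans are made mainly by fibroblasts of the meninges, the choroid plexus and the vessel wall rather than by neurons, so bulk hippocampus carries them as a small share of its RNA.

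The upstream sequences of 4 members with a KO signal above WT on every array are shown here, because these genes had the largest differences of the set. Each run gives the 250 bases before a RefSeq start of transcription (GRCm38.p6), 5′ to 3′ on the strand of the gene. Capitals mark matches on either strand to motifs of core promoters and to a motif of the AP-1 transcription factor. The CCAAT box was searched as CCAAT, the TATA box was searched as TATAAA, the GC box was searched as GGGCGG, and the AP-1 motif was searched as TGANTCA. In the 4 runs no match overlaps another.
Col1a2, chr6:4505368-4505617, plus strand: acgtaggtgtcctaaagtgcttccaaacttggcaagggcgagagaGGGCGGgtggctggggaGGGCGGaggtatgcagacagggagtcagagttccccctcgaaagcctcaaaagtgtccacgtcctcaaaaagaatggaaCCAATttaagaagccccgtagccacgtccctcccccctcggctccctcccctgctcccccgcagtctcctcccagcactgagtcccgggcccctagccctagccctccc
Col3a1, chr1:45311288-45311537, plus strand: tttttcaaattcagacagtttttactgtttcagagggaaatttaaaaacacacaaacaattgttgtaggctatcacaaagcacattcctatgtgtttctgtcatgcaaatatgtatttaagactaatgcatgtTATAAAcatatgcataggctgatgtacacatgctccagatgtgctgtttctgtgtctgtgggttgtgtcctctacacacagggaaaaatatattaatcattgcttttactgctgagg
Col6a1, chr10:76726045-76726294, minus strand: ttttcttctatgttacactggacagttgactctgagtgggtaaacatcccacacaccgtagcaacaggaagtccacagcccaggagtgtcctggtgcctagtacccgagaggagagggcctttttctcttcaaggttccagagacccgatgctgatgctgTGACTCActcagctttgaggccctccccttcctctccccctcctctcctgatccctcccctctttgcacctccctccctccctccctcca
Fmod, chr1:134037004-134037253, plus strand: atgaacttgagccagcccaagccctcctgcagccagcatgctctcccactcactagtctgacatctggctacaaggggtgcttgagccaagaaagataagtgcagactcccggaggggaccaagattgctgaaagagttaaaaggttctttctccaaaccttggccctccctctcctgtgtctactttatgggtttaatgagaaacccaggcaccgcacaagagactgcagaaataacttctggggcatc

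The 4 upstream sequences share none of these motifs. Col1a2 held a CCAAT and 2 GC boxes, Col3a1 held a TATAAA, Col6a1 held TGACTCA, and Fmod held none of them. RefSeq windows existed for 30 members, with 40 windows in all. CCAAT was present in 30% of the member windows against 33.8% of 32851 promoters, and TATAAA in 15% against 12.4%. GGGCGG was present in 45% of the member windows against 32.7% of all promoters, and TGANTCA in 5% against 6.75%. A match is a string of letters and not a measured site.

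As compared with WT hippocampus, no member passed an adjusted p of 0.05 in the KO hippocampus. The test was limma on log2 signals with Benjamini-Hochberg adjustment over 12903 genes, of which 8 genes (0.062%) passed, and the lowest adjusted p of a member was 0.305 for Col1a2. At an unadjusted p under 0.05, 7 of 36 members were called, which is 19.4% against 7.48% of all genes tested. At least 1.5-fold higher on average were 8 of 36 members, against 4.15% of all genes, and these were Col1a2, Col3a1, Col6a1, Col6a2, Col6a3, Dcn, Fmod and Postn. No member was 1.5-fold lower, against 2.03% of all genes. In 7 members every KO array lay above every WT array (9.56% of all genes), and in 1, Col4a2, every KO array lay below (7.13% of all genes). In bulk tissue, a change in the number of cells of a type and a change in RNA per cell cannot be told apart. An exact permutation test of 3 against 3 arrays cannot give a p under 0.1.

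**Figure D1:**
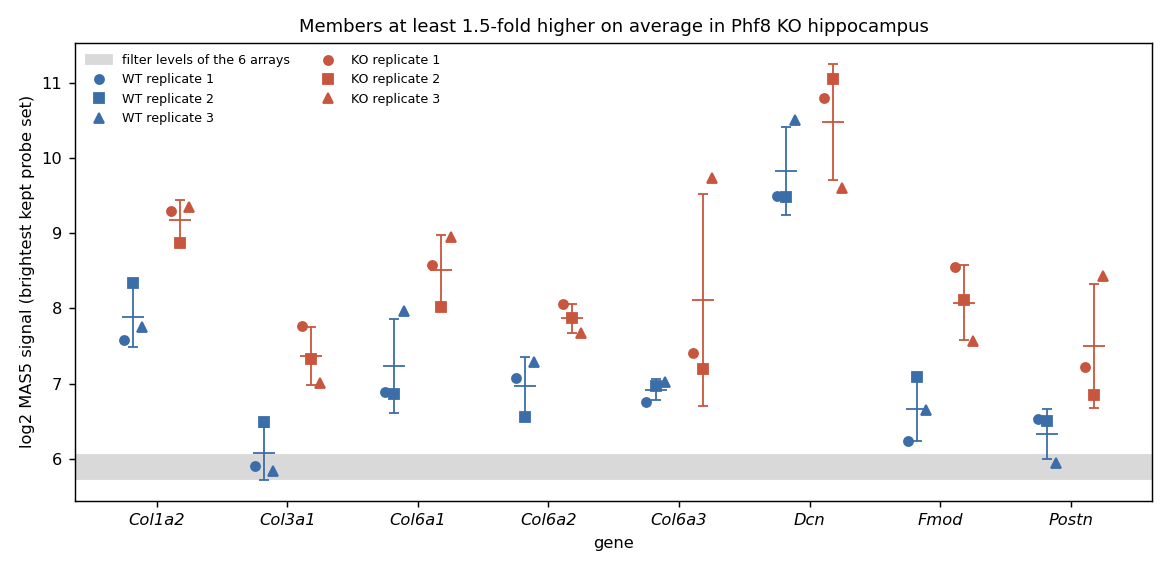
Log2 MAS5 signal (y axis) of the 8 members that were at least 1.5-fold higher on average in KO (x axis), on each WT and KO array, with the group mean and SD as a bar and the filter levels of the 6 arrays (5.73 to 6.05) as a grey band. The groups are separate in 7 genes, and in Dcn KO replicate 3 lies below the highest WT array.

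KO replicate 3 differed from the other 5 arrays as a whole. Pearson correlations computed over all genes were 0.925 to 0.940 for pairs that included it and 0.976 to 0.987 for pairs that did not, as a description over genes that are not independent. Relative to the WT mean, the 13 measured thalamus markers were at a median of 2.50 there, and the 10 measured markers of CA1 pyramidal cells, the main neurons of the hippocampal output field, were at -1.29. The targeted gene had a log2 signal of 9.66 to 9.90 on the WT arrays and 7.99 to 8.55 on the KO arrays. Values without KO replicate 3 are therefore given beside the results that it moved most.

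Among the fibrillar collagens, the genes for collagen I and collagen III had the largest differences. Col1a2 encodes the second chain of collagen I, the main collagen of meninges, skin and bone. Its log2 signals were 7.58, 8.34 and 7.75 in WT replicates 1 to 3 and 9.30, 8.86 and 9.35 in KO replicates 1 to 3. All KO arrays were above all WT arrays, and the gap between the highest WT and the lowest KO array was smaller than the spread among the WT arrays. The difference was 1.28 (standard error 0.24), or 2.43-fold, with an adjusted p of 0.305 by limma, and 1.19 without KO replicate 3. A second, dimmer probe set of Col1a2 read 4.79, 5.70 and 5.52 in WT and 7.33, 6.95 and 6.39 in KO, with means that differed by 1.56. All WT arrays were below their filter levels there, so this probe set entered through its KO signals and does not count as support for the brighter one.

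Col3a1 encodes collagen III, which is laid down together with collagen I in soft tissue. Its signals were 5.90, 6.48 and 5.84 in WT and 7.77, 7.33 and 7.01 in KO, again with all KO arrays above all WT arrays. WT replicates 1 and 3 sat near the filter levels, so the WT signal of this gene is dim. KO minus WT was 1.29 (standard error 0.29, limma adjusted p = 0.460) and 1.48 without KO replicate 3.

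Col1a1, the partner chain of Col1a2 in collagen I, was too dim to be tested. Its brighter probe set had signals of 5.20, 4.99 and 5.52 in WT and 6.29, 5.43 and 5.65 in KO, with means that differed by 0.55. KO replicate 1 alone exceeded the filter levels, and KO replicate 2 overlapped the WT arrays. The other probe set read 2.41, 1.51 and 2.30 in WT and 3.78, 3.33 and 2.29 in KO, far below the filter levels on all arrays. At such signals a log2 difference is imprecise, and none is called here.

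**Figure D2:**
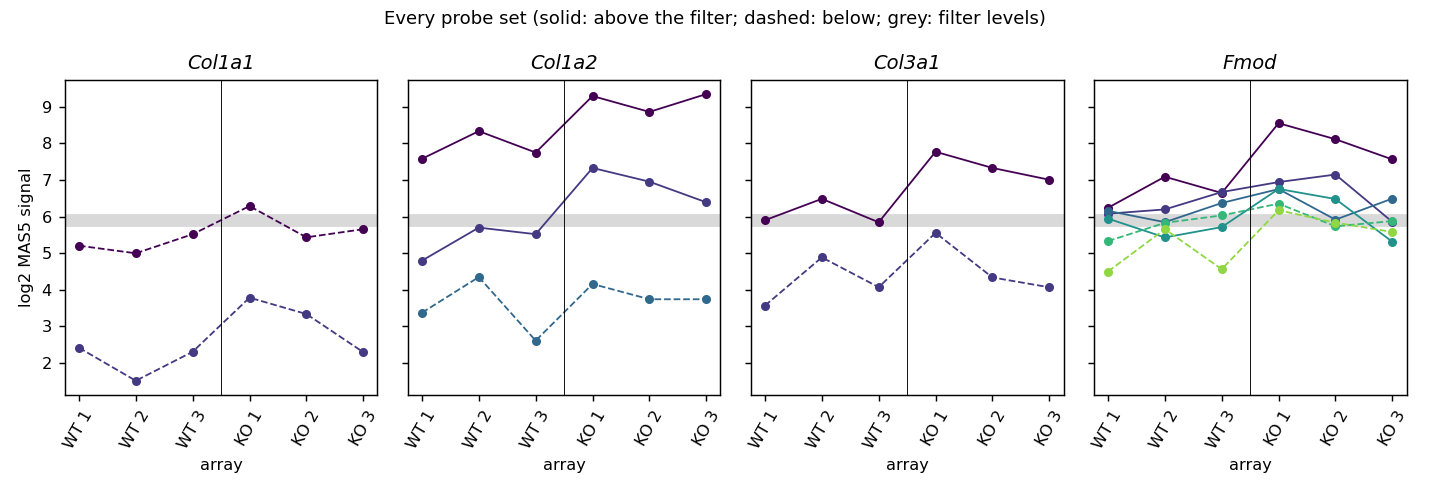
Log2 MAS5 signal (y axis) of every probe set of Col1a1, Col1a2, Col3a1 and Fmod on the 6 arrays (x axis), with 1 line per probe set, dashed where it lay below the filter, and the filter levels in grey. The second kept probe set of Col1a2 lies below the filter levels on the WT arrays and above them on the KO arrays. Of the 4 kept probe sets of Fmod only the brightest lies above the whole grey band on all 3 KO arrays, and it does so on the WT arrays too.

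Col5a1 and Col5a2 encode the chains of collagen V, which starts and limits the growth of collagen I fibrils. Col5a1 read 7.53, 7.48 and 7.98 in WT and 8.37, 8.19 and 7.32 in KO, and differed by 0.30 (standard error 0.30). KO replicate 3 was the lowest of the 6 arrays and the other KO arrays were the highest. For Col5a2 KO replicate 3 lay among the WT arrays, with 7.38, 7.32 and 7.56 in WT against 8.10, 8.06 and 7.36 in KO, and a difference of 0.42 (standard error 0.24). Without KO replicate 3 the differences were 0.62 and 0.66. The dimmer probe sets of both genes had separate groups, at differences of 0.72 for Col5a1 and 0.79 for Col5a2.

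Col11a1, a fibrillar collagen best known from cartilage, was lower on average in KO. It read 8.84, 8.51 and 8.78 in WT and 8.04, 8.39 and 8.60 in KO, where KO replicate 3 overlapped the WT arrays. The difference was -0.36 (standard error 0.19, limma adjusted p = 0.675), and its second probe set gave -0.48 with every KO array below every WT array.

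The other interstitial collagens had the highest median difference of the 6 groups, through the genes of collagen VI. Col6a1, Col6a2 and Col6a3 encode the 3 chains that assemble into collagen VI microfibrils around cells. Col6a1 had signals of 6.89, 6.86 and 7.96 in WT and 8.57, 8.02 and 8.95 in KO. The groups did not overlap, although WT replicate 3 came close to KO replicate 2. The difference was 1.27 (standard error 0.36), or 2.42-fold, with a limma adjusted p of 0.563, and 1.06 without KO replicate 3. Col6a2, its neighbour on the chromosome, read 7.08, 6.55 and 7.29 in WT and 8.06, 7.88 and 7.68 in KO. All KO arrays were higher than all WT arrays, by a difference of 0.90 (standard error 0.24, limma adjusted p = 0.559). A second probe set of Col6a2 differed by 0.61, with KO replicate 3 among the WT arrays.

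Col6a3 depended on 1 library. Its signals were 6.76, 6.97 and 7.02 in WT and 7.41, 7.20 and 9.73 in KO. All KO arrays were higher, but KO replicate 3 was far above the others. KO minus WT was 1.20 (standard error 0.62, limma adjusted p = 0.679) and 0.38 without KO replicate 3, whose thalamus markers were also high. Col12a1, a collagen that associates with collagen I fibrils, differed by 0.02, with KO replicate 1 the highest array and KO replicate 3 the lowest, and by 0.28 without KO replicate 3. Over the 4 genes of this group the median difference was 1.05, or 0.69 without KO replicate 3.

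Basement membrane genes had a median difference of -0.03, with 3 of 7 higher and 4 lower. Without KO replicate 3 the median was 0.21, and Lamb1 and Lamc1 were then higher on average. Col4a1 and Col4a2 are neighbouring genes for chains of the collagen IV network. Col4a1 read 9.88, 9.89 and 9.75 in WT and 9.79, 9.85 and 9.36 in KO. The groups overlapped, and the difference was -0.17 (standard error 0.16, limma adjusted p = 0.775) and -0.02 without KO replicate 3. Col4a2 had 9.39, 9.24 and 9.26 in WT and 9.23, 9.08 and 8.82 in KO. Its KO arrays all lay below its WT arrays, by 0.01 at the closest, with a difference of -0.26 (standard error 0.15, limma adjusted p = 0.684) and -0.14 without KO replicate 3.

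The laminin and nidogen genes, whose products join collagen IV in the basement membrane, had overlapping groups. Lama2 differed by 0.23, Lamb1 by -0.03, Lamc1 by -0.16 and Nid1 by 0.30. Without KO replicate 3 these differences were 0.29, 0.21, 0.13 and 0.57. Col18a1, whose C-terminal fragment is endostatin, differed by 0.48 with overlapping groups on its brighter probe set, and by 0.32 without KO replicate 3. Its dimmer probe set read 3.99, 5.49 and 4.52 in WT and 6.15, 6.12 and 6.50 in KO, with means that differed by 1.59. All WT arrays were below their filter levels there, so this probe set too entered through its KO signals.

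Small proteoglycans had a median difference of 0.01 over 6 genes, or 0.37 without KO replicate 3, and Fmod and Dcn were at least 1.5-fold higher on average. Fmod encodes fibromodulin, which binds collagen I fibrils. On the brightest of its 4 kept probe sets the signals were 6.24, 7.09 and 6.64 in WT and 8.55, 8.11 and 7.56 in KO. All KO arrays were above all WT arrays, with a difference of 1.42 (standard error 0.32), or 2.67-fold, and a limma adjusted p of 0.452. The other 3 kept probe sets of Fmod were dimmer and differed by 0.26, 0.33 and 0.49, with overlapping groups. By its type, the brightest probe set may also match other transcripts. The only kept probe set of Fmod that is not of this type was the one that differed by 0.26. Without KO replicate 3 the difference of the brightest probe set was 1.68, and Fmod then passed with a limma adjusted p of 0.0423.

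Dcn encodes decorin, a small proteoglycan abundant in meningeal fibroblasts, and it is also used as a marker of CA1 neurons. Its signals were 9.49, 9.47 and 10.50 in WT and 10.79, 11.05 and 9.60 in KO. KO replicates 1 and 2 were the highest arrays, WT replicate 3 was close behind, and KO replicate 3 lay between it and the other WT arrays. The difference was 0.66 (standard error 0.42, limma adjusted p = 0.709), 1.10 without KO replicate 3 and 0.38 without KO replicate 2.

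Lum, the gene for lumican and the neighbour of Dcn, differed by -0.03. The biglycan gene Bgn differed by 0.06, and its 3 probe sets all lay between 0.06 and 0.15. It differed by 0.19 without KO replicate 3. Ogn, the gene for osteoglycin, differed by -0.06 with a wide KO spread, from 7.64 in KO replicate 3 to 9.45 in KO replicate 1, against 8.45 to 8.89 in WT. Aspn, the gene for asporin, was dim and differed by -0.06. In Lum, Ogn and Aspn, KO replicate 3 was the lowest of the 6 arrays, and without it the differences were 0.28, 0.47 and 0.25.

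**Figure D3:**
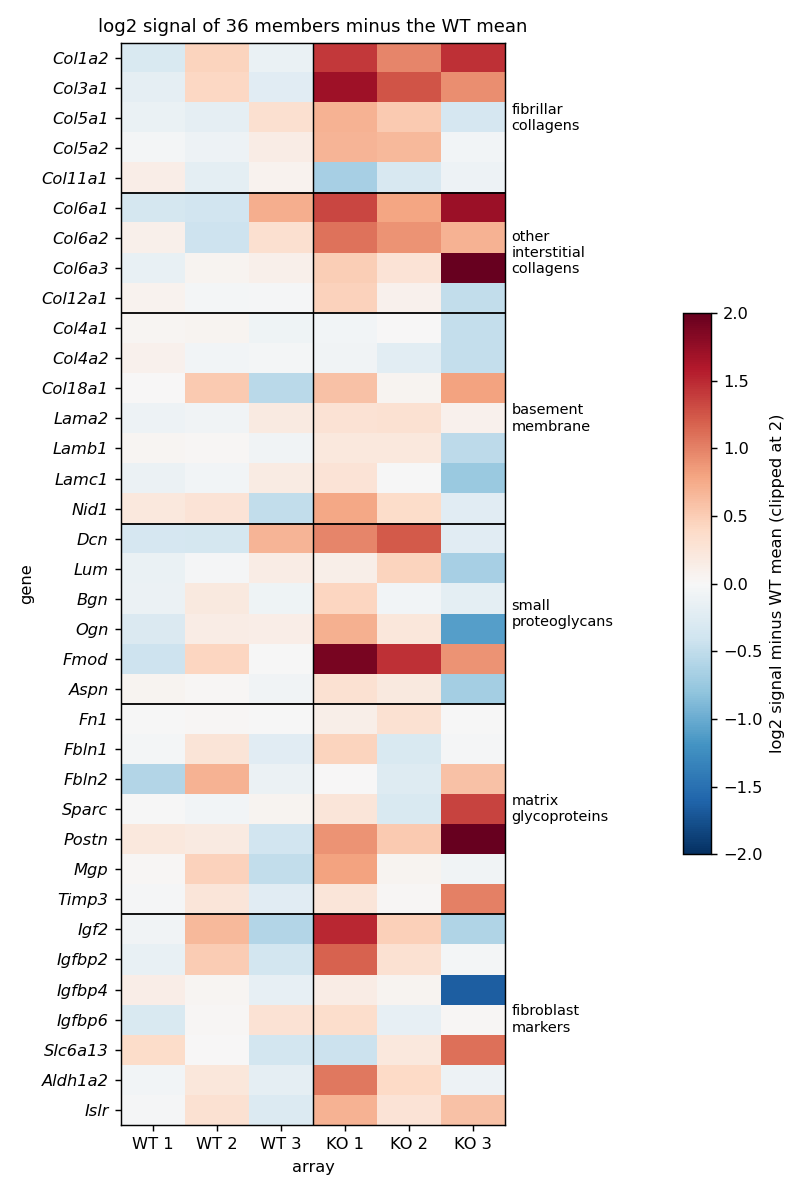
Log2 signal of the 36 tested members (y axis, by group) on each array (x axis) minus the WT mean of that gene, as colour, clipped at 2 in either direction. Red cells fill most of the KO replicate 1 column, fewer in KO replicate 2, and KO replicate 3 holds both red cells (Col6a3, Postn, Sparc, Timp3) and blue ones (Igfbp4, Ogn, Lum, Aspn).

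All 7 measured matrix glycoproteins were higher on average in KO, with a median difference of 0.26, or 0.14 without KO replicate 3, and Postn was the member that reached 1.5-fold. Postn encodes periostin, a matrix protein that binds collagen and integrins. It read 6.53, 6.51 and 5.94 in WT and 7.22, 6.85 and 8.43 in KO, with every KO array above every WT array. The difference was 1.17 (standard error 0.42), or 2.25-fold, with a limma adjusted p of 0.638, and it was 0.71 without KO replicate 3. Fn1, the gene for fibronectin, had nearly equal signals of 9.71, 9.74 and 9.72 in WT and 9.84, 10.03 and 9.72 in KO. KO replicate 3 lay among the WT arrays, and the difference was 0.14 (standard error 0.12, limma adjusted p = 0.769), while a dimmer probe set of Fn1 gave -0.42.

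Sparc, which encodes a collagen-binding protein that astrocytes, microglia and endothelium also make, read 11.78, 11.73 and 11.85 in WT and 12.02, 11.49 and 13.13 in KO. KO replicate 3 was the highest array and KO replicate 2 the lowest, so that the difference of 0.43 became -0.03 without KO replicate 3. Timp3, an inhibitor of matrix metalloproteinases, differed by 0.43 and by 0.14 without KO replicate 3, where it read 11.04. The fibulin genes Fbln1 and Fbln2 differed by 0.04 and 0.11, and the 3 probe sets of Fbln1 ranged from -0.57 to 0.63. Fbln2 was at -0.13 without KO replicate 3. Mgp, the gene for matrix Gla protein, an inhibitor of calcification, differed by 0.26 with overlapping groups, and by 0.43 without KO replicate 3.

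Fibroblast markers had a median difference of 0.45 over 7 genes, or 0.14 without KO replicate 1, and none of them had separate groups. Igf2, a growth factor that meninges and choroid plexus both express, had signals of 9.97, 10.68 and 9.46 in WT and 11.55, 10.50 and 9.44 in KO. KO replicate 1 was the highest array, and KO replicate 3 was the lowest, just below WT replicate 3. The difference was 0.46 (standard error 0.53, limma adjusted p = 0.819), -0.06 without KO replicate 1 and 0.99 without KO replicate 3. Igfbp2, an IGF-binding protein, followed a like order, with 9.64, 10.30 and 9.42 in WT and 10.97, 10.09 and 9.75 in KO, and the difference was 0.48, 0.14 without KO replicate 1 and 0.74 without KO replicate 3. In both genes WT replicate 2 was the highest WT array and WT replicate 3 the lowest, the order also seen in the choroid plexus markers.

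Aldh1a2, the retinoic acid synthesis enzyme of meninges, read 7.0, 7.28 and 6.87 in WT and 8.11, 7.45 and 6.94 in KO. Its difference was 0.45, 0.15 without KO replicate 1 and 0.73 without KO replicate 3. KO replicates 1 and 2 were above the WT arrays and KO replicate 3 was among them. Islr, which encodes a secreted protein of stromal cells, read 7.79, 8.11 and 7.53 in WT and 8.50, 8.08 and 8.40 in KO, and only KO replicate 2 overlapped WT. Its difference was 0.52 (standard error 0.20), with a limma unadjusted p of 0.0364 and an adjusted p of 0.659. Igfbp4, by contrast, read 12.04, 11.95 and 11.75 in WT and 12.07, 11.97 and 10.27 in KO, and all 5 of its kept probe sets were lower on average, between -0.57 and -0.43. That difference sat in KO replicate 3, without which it was 0.11. Igfbp6 differed by 0.08, and Slc6a13, a GABA transporter of meninges, was dim and differed by 0.29. On KO replicates 1 to 3 Slc6a13 read 5.11, 5.76 and 6.64, and its difference was -0.11 without KO replicate 3 and 0.66 without KO replicate 1.

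**Figure D4:**
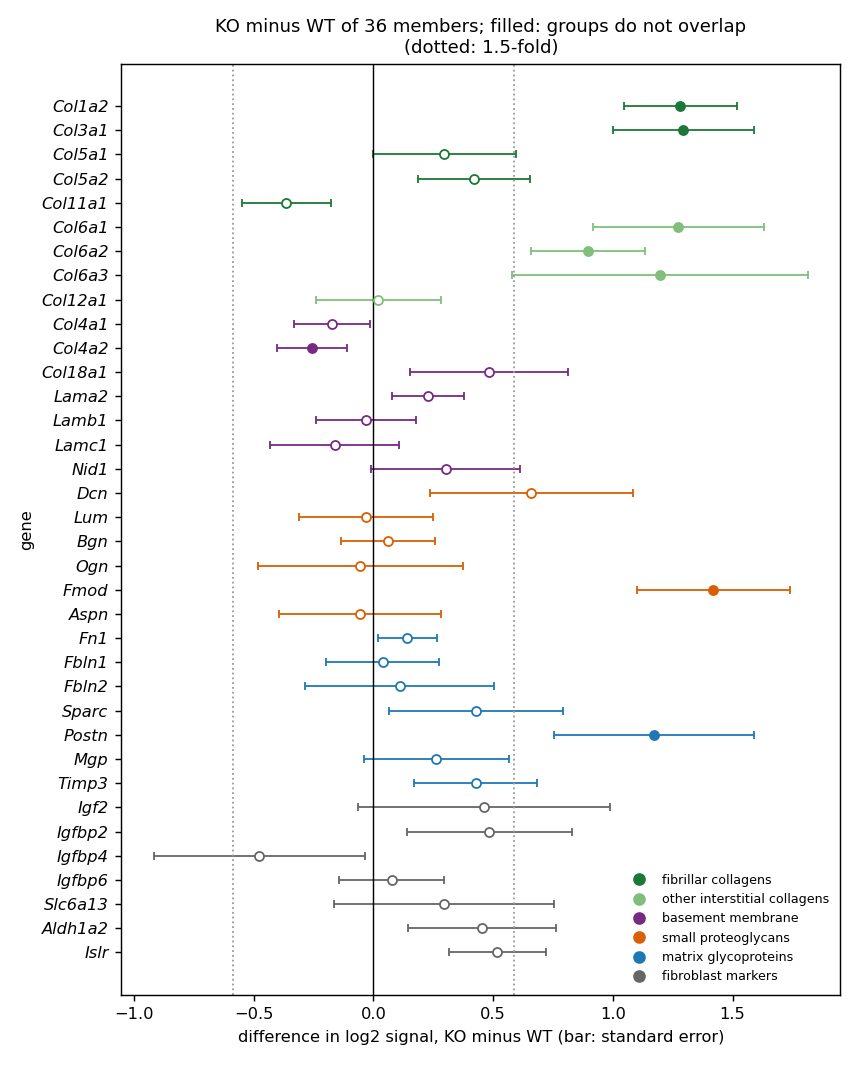
KO minus WT difference in log2 signal (x axis) with its standard error for the 36 tested members (y axis), coloured by group and filled where the groups do not overlap, with dotted lines at 1.5-fold. The 7 filled points on the right are Col1a2, Col3a1, Col6a1, Col6a2, Col6a3, Fmod and Postn, and the filled point on the left is Col4a2.

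The 3 KO arrays did not carry the members alike. On KO replicate 1, 30 of 36 members were above every WT array, which is 83.3% against 34.4% of all genes. On KO replicate 2 the count was 19, or 52.8% against 37.8% of all genes. On KO replicate 3 it was 12, or 33.3% against 40.1%, and another 12 members were below every WT array there, against 41.7% of all genes. Over the 36 members the median distance from the WT mean was 0.48 on KO replicate 1, 0.24 on KO replicate 2 and -0.05 on KO replicate 3. By group, KO replicate 3 was at 1.20 for the other interstitial collagens and 0.59 for the matrix glycoproteins, but at -0.48 for the basement membrane genes and -0.44 for the small proteoglycans. Without KO replicate 3, 18 of 36 members had every KO array above every WT array, against 18.8% of all genes with 2 KO arrays, and 12 were at least 1.5-fold higher, against 3.27% of all genes.

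Probe sets were also counted singly. Of the 82 probe sets of members, 64 passed the filter, 42 higher and 22 lower on average, and none passed an adjusted p of 0.05 by limma. In 11 of the 64 every KO array lay above every WT array, or 17.2% against 7.37% of all probe sets kept. Of these 11, the second probe sets of Col1a2 and Col18a1 had passed the filter on KO arrays only, which leaves 9. Of 17 members with several kept probe sets, 12 had all of them in 1 direction. Exceptions were Col12a1, Col4a1, Fn1, Fbln1 and Timp3.

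Some members are direct neighbours among protein-coding genes in RefSeq (GRCm38.p6), and neighbours did not always differ alike. Col6a1 and Col6a2 had differences of 1.27 and 0.90. Next to Col3a1 at 1.29, Col5a2 was at 0.42. Dcn at 0.66 lies beside Lum at -0.03. For the collagen IV pair the values were -0.17 and -0.26.

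Further genes that make, fold, cut or bind this matrix were counted in lists that hold no member. None of their genes passed the adjusted p of 0.05 in either direction. Of 21 other collagen genes 14 were higher on average, with a median difference of 0.21. Col23a1, a transmembrane collagen, differed by 1.70 and Col6a4, another collagen VI chain, by -2.06 (limma adjusted p = 0.563 and 0.256), both with separate groups. All KO arrays of Col6a4 lay below their filter levels, where a log2 difference is imprecise. Col6a4 entered the test through its WT signals only, so the size of its difference is not relied on. Col23a1 read 5.81 and 5.47 on WT replicates 1 and 2, below their filter levels of 5.83 and 5.98. Its difference is imprecise too. Among other basement membrane genes 7 of 11 were higher, with a median of 0.26. Ntn4, a netrin of vascular basement membrane, differed by 0.78, with 0.68, 0.26 and 1.38 relative to the WT mean on KO replicates 1 to 3. Smoc2 was at -0.57 with every KO array below every WT array, and at -0.18, -0.20 and -1.33 on the same arrays. The other small proteoglycans and glycoproteins had 10 of 15 higher and a median of 0.14. Fbln5, a fibulin needed for elastic fibres, differed by 1.03, with 0.97, 0.47 and 1.66 on KO replicates 1 to 3.

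Of 22 genes for collagen synthesis and cross-linking 13 were higher, with a median of 0.05. Serpinh1, the collagen chaperone of the endoplasmic reticulum, differed by 0.38 with overlapping groups. Every KO array was below every WT array in 2 of the 22, against 7.13% of all genes. These were Bmp1, a procollagen protease, at -0.32, and Fkbp14, a collagen-folding enzyme, at -0.16. Matrix proteases and inhibitors had 12 of 17 higher and a median of 0.11, and the smallest p in the list was that of Htra1, a secreted serine protease, at -0.31 with every KO array below every WT array. Mmp14, a membrane-bound collagenase, differed by 0.51 with every KO array above. Matrix receptors had 13 of 19 higher and a median of 0.08, among them the collagen receptor gene Ddr1 at 0.37 and the syndecan gene Sdc2 at 0.60. TGF-beta and PDGF signaling genes, which drive matrix synthesis in fibroblasts, were 11 of 22 higher with a median of -0.01. The IGF system had 5 of 9 higher and a median of 0.07, and the retinoid genes of meninges 5 of 7 and 0.20. Matrix genes of the brain interior, such as those of perineuronal nets, were 7 of 14 higher with a median of 0.00, and the tenascin gene Tnc differed by 1.39. The median over all 12903 genes was 0.01.

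Markers of the cell types that carry these genes were set beside them. Of 29 further markers of meningeal fibroblasts, 22 passed the filter. Of these, 16 were higher, with a median difference of 0.28. Relative to the WT mean, the list median was 0.46, 0.34 and -0.12 on KO replicates 1 to 3. On WT replicates 1 to 3 it was 0.02, 0.11 and -0.10, so KO replicate 3 was the lowest array. The summed linear signal of the 22 markers ran from 24255 to 29245 in WT and from 29983 to 33190 in KO. The brightest markers weigh most in such a sum, so it does not describe the list as a whole. Every KO array was above every WT array in 5 of the 22 (9.56% of all genes), namely Ptgds, Bmp7, Cldn11, Nupr1 and Ranbp3l, with differences of 0.40, 0.73, 0.29, 0.53 and 0.36. Ptgds encodes a prostaglandin D synthase, and Bmp7 a bone morphogenetic protein. Which cells of the tissue carried the signals of these 5 genes was not tested. Foxc1, the transcription factor gene that defines meningeal fibroblasts, differed by 0.02, and Pdgfra, shared with oligodendrocyte precursors, by -0.06. The 7 markers without a kept probe set of their own were Foxc2, Twist1, Slc22a2, Slc47a1, Dpp4, Pi16 and Cdh1, and no measured marker had a signal of 0. The part of cell number in the members' differences was not tested.

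Choroid plexus epithelium, which lies against the hippocampus and is easily taken with it, varied more between arrays than between groups. Its 15 measured markers, of 17, had a median relative to the WT mean of 0.04, 0.93 and -0.95 on WT replicates 1 to 3 and 1.31, 0.33 and -1.99 on KO replicates 1 to 3. Their summed linear signal ran from 32695 to 42781 in WT and from 20263 to 45524 in KO. KO replicate 1 was the highest array and KO replicate 3 the lowest for this list. The same held for 8 of 36 members, which were Col5a1, Col12a1, Lamc1, Bgn, Ogn, Aspn, Igf2 and Igfbp4, while 19 members had KO replicate 1 highest and 12 had KO replicate 3 lowest. Whether choroid plexus RNA had a part in the values of these members was not tested.

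**Figure D5:**
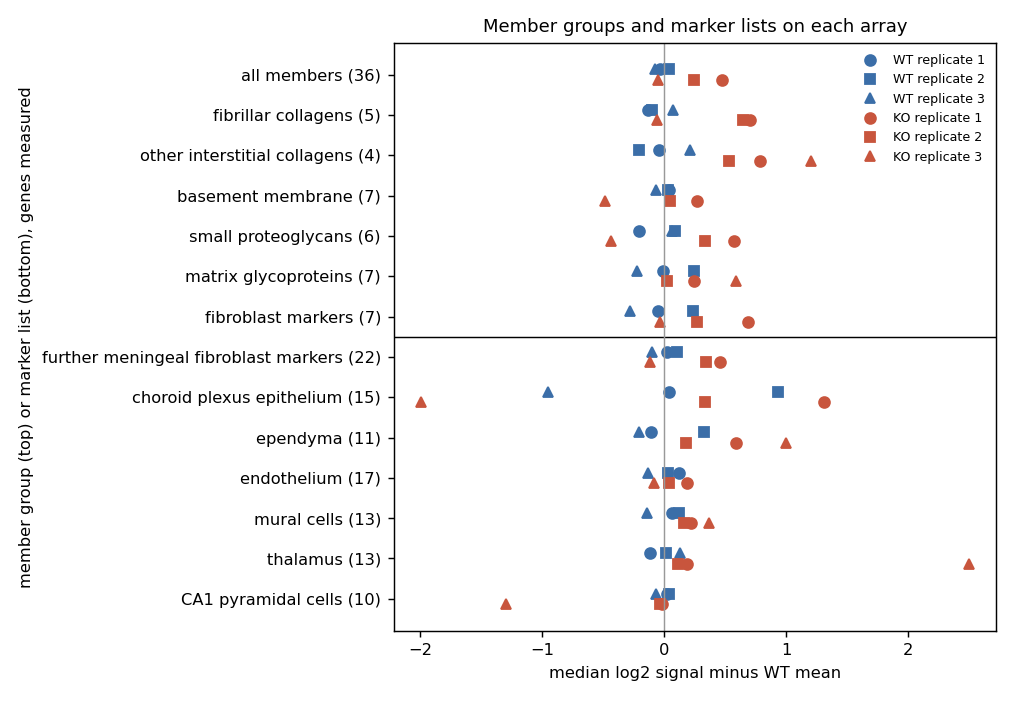
Median log2 signal minus the WT mean (x axis) on each array for the members and their 6 groups (top) and for 7 marker lists (bottom), with the number of genes measured in brackets. The choroid plexus list spreads from -1.99 to 1.31, the thalamus list reaches 2.50 on KO replicate 3 only, and the groups of members stay between -0.48 and 1.20.

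The other lists give the surroundings of these values. Ependyma markers were higher in 10 of 11 genes, with a median of 0.63 and 0.59, 0.18 and 1.0 on KO replicates 1 to 3. Endothelium (11 of 17 higher, median 0.05), mural cells (8 of 13, 0.16) and astrocytes (7 of 12, 0.04) had medians nearer to 0. Macrophages of the brain borders had 2 of 7 higher and a median of -0.16. In the erythroid list all 4 measured genes were lower, with a median of -3.80, and 2 of them, Alas2 and Hbb-b2, passed with limma adjusted p of 0.037 and 0.0285. Thalamus markers were all higher (13 of 13, median 0.88), through KO replicate 3, and CA1 markers, Dcn among them, were 3 of 10 higher with a median of -0.54. Col6a3, Postn and Sparc were also highest on KO replicate 3, and whether thalamus tissue had a part in their values was not tested.

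The genes whose pattern over the 6 arrays was most like that of the groups were taken from all tested genes that are no members. The 5 genes with the highest Pearson correlation with the mean of the fibrillar collagens were Zfp945, Plat, Tmem86a, Sox4 and Dctn6, with r between 0.985 and 0.994 over 6 arrays. Plat, the gene for tissue plasminogen activator, is also on the list of matrix proteases and inhibitors. For the mean of the small proteoglycans they were Zfp398, Syt11, Dnmt3b, Zbtb11os1 and Irgm1, with r between 0.983 and 0.993. These are the highest of 12903 genes over only 6 points, so values of this size are a description of the arrays.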

How the data were processed

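Total RNA of hippocampus was measured on 6 Affymetrix mouse arrays, 3 WT and 3 KO, grouped by the sample labels. The authors deposited log2 MAS5 signals of 45037 probe sets. MAS5 and affy are listed, with no version, in the submitters' processing notes. The paper's methods name GeneSpring, a filter on Absent calls and a cutoff of 1.5-fold. Detection calls were not used here. MAS5 subtracts mismatch signals, so dim probe sets are noisy on the log2 scale.

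A probe set had to exceed its array's 40th percentile on 3 or more of the 6 arrays, and 27408 did. The platform's gene table pairs 34945 probe sets with 1 gene, gives several for 932 and does not list 9160. For each of 12903 genes the brightest of these probe sets with a single symbol was used. The groups were compared with limma 3.58.1 (R 4.3.3), using lmFit, eBayes with a trend and Benjamini-Hochberg adjustment over all genes. The fit was tested on simulated data. Precision is limited by 3 arrays per group.

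Members and lists were chosen with earlier results of these data known. Array values are given for members with separate groups or at least 1.5-fold, and for Col1a1, Col4a1, Dcn, Fn1 and Igf2. Array values of Col5a1, Col5a2, Col11a1, Sparc, Igfbp2, Igfbp4, Slc6a13, Aldh1a2 and Islr were added after they were seen. From each list up to 3 genes with the smallest p were eligible to be named, and Nupr1, Ranbp3l, Foxc1, Pdgfra and Fkbp14 were added after their values were seen. Replicate numbers did not pair the arrays. Alternatives were other normalizations, filters, an offset of 16 signal units, other variance models, array weights, a replicate block, the mean of the kept probe sets and leaving out each array. Upstream sequences came from RefSeq (GRCm38.p6).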

Additional observations from a re-analysis of the deposited data

How the results depend on the processing

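In the main fit no member passed the adjusted p, so there was no such call to lose. Quantile normalization, the lower filters, the offset and the fit without a variance trend left 0 members past the adjusted p. Col1a2 and Col6a1 were at least 1.5-fold higher with separate groups in all 14 settings counted. Col3a1, Col6a2 and Postn were so in each of these settings except the filter at the 60th percentile, where they were not tested. Fmod was not tested at that filter either. With the mean of its kept probe sets Fmod differed by only 0.63, and its groups overlapped. Median centring left 0 members with every KO array below WT, and the mean of the kept probe sets gave 2. With a filter at the 60th percentile 24 members were tested. Of these, 3 were at least 1.5-fold higher, against 2.17% of all genes tested there. Every KO array was above WT in 2 of the 24, against 9.42% of all genes. With gene-by-gene array weights, chosen after seeing the data because the default weights did not converge, 3 members passed, Col1a2 (limma adjusted p = 0.0254), Col3a1 (0.0254) and Fmod (0.0181). In all, 115 genes passed with these weights, among which KO replicate 3 had the lowest, at 0.14. With the replicate block 0 members passed (lowest limma adjusted p 0.309, Col6a1) and 4 genes in all, against 8 without it. The deviations of same-numbered arrays correlated at -0.04, 0.07 and 0.13. When each array was left out in turn, members past the adjusted p numbered 0 to 1 (Fmod, without KO replicate 3), and 53 genes in all then passed. Members with every KO array above WT numbered 7 to 18, and those below 1 to 2. Above WT there were 12 without WT replicate 2 (14.1% of all genes), 11 without KO replicate 2 (18.7%) and 18 without KO replicate 3 (18.8%). With all arrays the share of all genes was 9.56%, as separate groups are easier to reach with fewer arrays. Members at least 1.5-fold lower numbered 0 to 1, the 1 being Igfbp4 without KO replicate 1 or 2. The fibroblast marker median ranged from 0.14 (without KO replicate 1) to 0.57, and that of the other interstitial collagens from 0.69 (without KO replicate 3) to 1.21. The sign changed for 9 members without KO replicate 3 and for 6 without KO replicate 1. None of these had separate groups in the main fit. The cause of these shifts was not tested. Dim signals limit Col1a1, Col3a1, Aspn and Slc6a13.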
